A study of Mus musculus with 10 samples.

Results

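Slc32a1, Gad1, Gad2 and Pvalb were followed in the midbrain of arthritic and control mice. Gad1 and Gad2 encode the glutamate decarboxylases that make GABA, Slc32a1 encodes the transporter that loads GABA into synaptic vesicles, and Pvalb encodes parvalbumin, a calcium-binding protein of one class of GABA neurons that neither makes nor carries GABA. The genes were taken by symbol: a probe belonged to the set where the platform's probe table names 1 of these 4 as its single gene. That gave 4 genes, with 1 probe each, of 8726 named genes on the array. All 4 had a value in each of the 3 biological replicates, as did 3738 named genes in all. A single probe stands for each gene, so isoforms cannot be told apart.

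GABA is the main inhibitory transmitter of the adult brain. It is made from glutamate by decarboxylation in the nerve terminal, pumped into vesicles in exchange for protons, and taken up again by transporters of neurons and glia after release. In the midbrain, GABA neurons lie in the pars reticulata of the substantia nigra, the ventral tegmental area, the periaqueductal grey and the colliculi, where they restrain dopamine neurons and take part in descending control of pain.

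Each of 10 two-colour arrays held RNA of collagen-injected male DBA/1 mice, an inbred strain that develops arthritis after type II collagen, in one dye and RNA of control males in the other. The mice were 8 weeks old when injected into the skin. Collagen mice had 100 ul of type II collagen together with complete Freund's adjuvant (100 ul), and control mice had 200 ul of the adjuvant without collagen. LPS, the endotoxin of gram-negative bacteria, followed on day 24 in collagen and control mice alike, so the controls were not untreated mice. Death is labelled at 31, with an unclear unit, and the number of animals behind an RNA is unknown here. The arrays form 5 dye-swap pairs. For replicates 1 and 2 there are 2 pairs, called first and second by their titles' order, and for replicate 3 there is 1. The value of a replicate is the mean of its pairs.

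Values below are log2 ratios of collagen over control, normalised within each scan, so a negative value means less signal from the collagen RNA. The direction is likely rather than stated, because the dye of the scanner's channel A is not named and was read as Cy3 from the labels' dye order. With A as Cy5, every sign would turn. In whole tissue, fewer cells of a type and less RNA per cell cannot be told apart. Each array gave a ratio for 4496 to 8425 probes, and 4139 probes had a value in all 3 replicates. The test was limma's moderated test of the 3 replicate values against 0, adjusted over those 4139 probes by Benjamini-Hochberg. It called 0 probes at an adjusted p under 0.05, and 163 had an unadjusted p under 0.05. The median ratio was -0.025, and 59.2% of the probes had a mean below 0. Of 7 listed markers of dopamine neurons, 5 had a probe, and all 5 (Th, Ddc, Nr4a2, Pitx3 and En1) were measured in the 3 replicates.

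Slc32a1 had the mean furthest from 0 of the 4 genes, and it was lower in the collagen RNA in all 3 replicates. Its values were -0.30 in replicate 1, -0.26 in replicate 2 and -0.25 in replicate 3. The mean was -0.27 ± 0.03 (SD, n = 3), or 0.83-fold, with a 95% interval of -0.45 to -0.09. It did not pass the test (limma adjusted p = 0.827, unadjusted p = 0.0115). Of all 4139 probes, 20.8% were lower in the 3 replicates, 3.94% had an unadjusted p under 0.05 and 0% passed the adjusted threshold. The SD of 0.03 over the replicates was small for these arrays, since 137 of 4139 tested probes had a smaller one and the median was 0.14.

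The close replicate values of Slc32a1 were means over pairs that lay far apart. Replicate 1 held a first pair at -0.66 and a second pair at 0.05. Replicate 2 held a first pair at -0.57 and a second pair at 0.05, and the only pair of replicate 3 stood at -0.25. Within both repeated replicates the pairs thus differed in sign, and the gap between them was wider than for most probes. It was 0.71 in replicate 1, above 95.3% of the 2795 probes with both pairs, and 0.61 in replicate 2, above 97.1% of 3149 probes. The median gaps were 0.20 and 0.16. Over the 5 pairs taken as separate values, the SD of Slc32a1 was 0.33, against a median of 0.16 for the 1830 probes with all 5 pairs.

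Taking the first pair of each replicate, with the only pair of replicate 3, gave a mean for Slc32a1 of -0.49 (limma adjusted p = 0.718). The second pairs with replicate 3 gave -0.05 (adjusted p = 0.958). Without the first pair of replicate 1 the mean was -0.15, and without the first pair of replicate 2 it was -0.17. Without the second pair of replicate 1 it was -0.39, and without that of replicate 2 it was -0.37. The mean of Slc32a1 therefore moved between -0.49 and -0.05 with the choice of pairs, while its sign stayed negative. With the second pairs that sign came from replicate 3 alone, as the second pairs of replicates 1 and 2 both stood at 0.05. When the 5 pairs were tested as separate values, the mean was -0.27 and the unadjusted p was 0.0486 (limma adjusted p = 0.8).

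**Figure D1:**
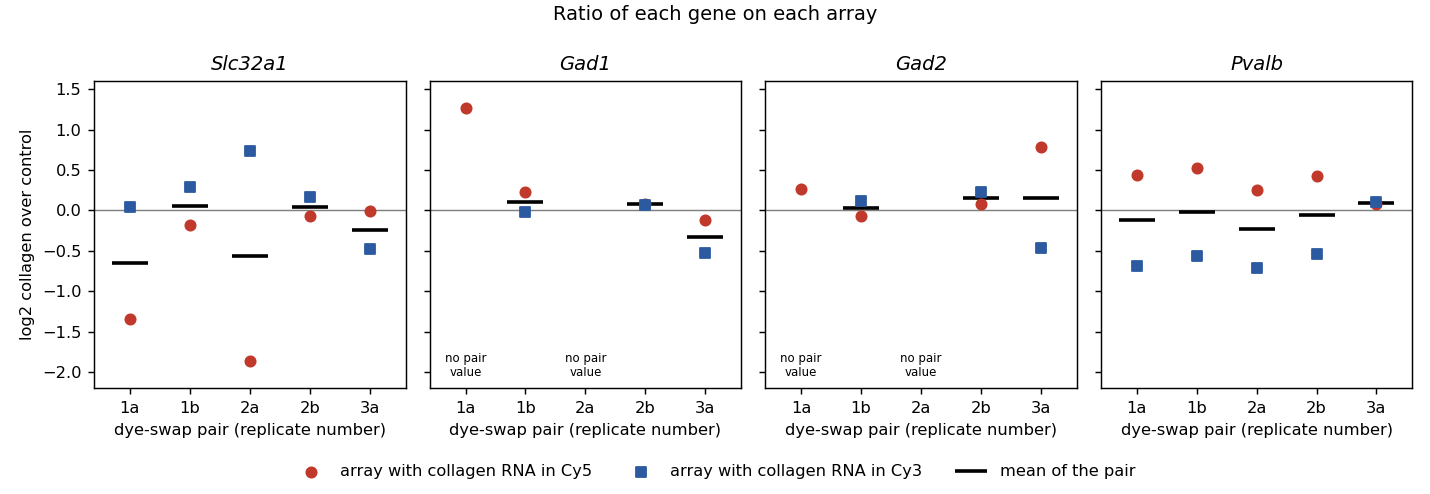
Log2 ratio of collagen over control (vertical axis) of Slc32a1, Gad1, Gad2 and Pvalb on each array, by dye-swap pair. Pairs carry their replicate number and a letter, a for the first pair and b for the second. Circles are arrays with collagen RNA in Cy5, squares are arrays with it in Cy3, and bars are pair means. Slc32a1 reaches -1.87 and -1.35 on the Cy5 arrays of pairs 2a and 1a, and Pvalb splits by dye in every pair of replicates 1 and 2.

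On single arrays the ratio of Slc32a1 ran from -1.87 to 0.74. With collagen RNA in Cy5, it was -1.35 and -0.18 in the first and second pairs of replicate 1, -1.87 and -0.07 in those of replicate 2, and -0.01 in replicate 3. With collagen RNA in Cy3, it was 0.04 and 0.29 in replicate 1, 0.74 and 0.16 in replicate 2, and -0.48 in replicate 3. The 5 Cy5 arrays were all below 0, whereas 4 of the 5 Cy3 arrays were above it, so the sign on an array went with the dye. Channel A was the brighter one for Slc32a1 on 9 of 10 arrays after normalisation. The ratio of channel B over A, called a dye effect here, averaged -0.31 ± 0.49 over the replicates and did not pass the test (limma adjusted p = 0.412), where 1.33% of all probes did. It rested on few arrays: the mean was -0.11 without replicate 2 or without its first pair, and -0.59 without replicate 3 (limma adjusted p = 0.107). A pair mean cancels a dye effect only where it is equal on both arrays of the pair.

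The arrays with the lowest ratios of Slc32a1 had its lowest log2 brightness over both channels, 17.64 and 18.11, against 19.39 to 22.39 on the other 8, on a scale not normalised between arrays. This brightness is the mean log2 intensity of both channels, so a low collagen channel lowers it together with the ratio. On the Cy5 array of the first pair of replicate 2, the log2 intensity was 16.15 in the collagen channel and 19.13 in the control channel, and the spot was brighter than 59.6% of those measured on that array. Its signal over background was 2.14 in the collagen channel and 7.09 in the control channel. On the Cy3 array of the same pair the log2 intensities were 19.63 for collagen and 19.16 for control, and the spot was brighter than 96.3% of those measured. On the Cy5 array of the first pair of replicate 1, with a ratio of -1.35, the log2 intensities were 17.39 for collagen and 18.82 for control. Its signal over background there was 2.04 in the collagen channel, the lowest collagen value of Slc32a1 on any array, and 4.15 in the control channel. Collagen values nearly as low stood beside smaller ratios. They were 2.11 on the Cy3 array of replicate 3 (ratio -0.48) and 2.47 on the Cy5 array of replicate 1's second pair (ratio -0.18). By rank the spot with the ratio of -1.35 was brighter than 85.1% of those measured on its array. On the Cy5 array of the second pair this was 75.4%. Repeat scans of the spot with the ratio of -1.35 ran from -1.47 to -1.29, a narrower range than the one between arrays. The part of spot quality in the Slc32a1 ratio was not tested.

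**Figure D2:**
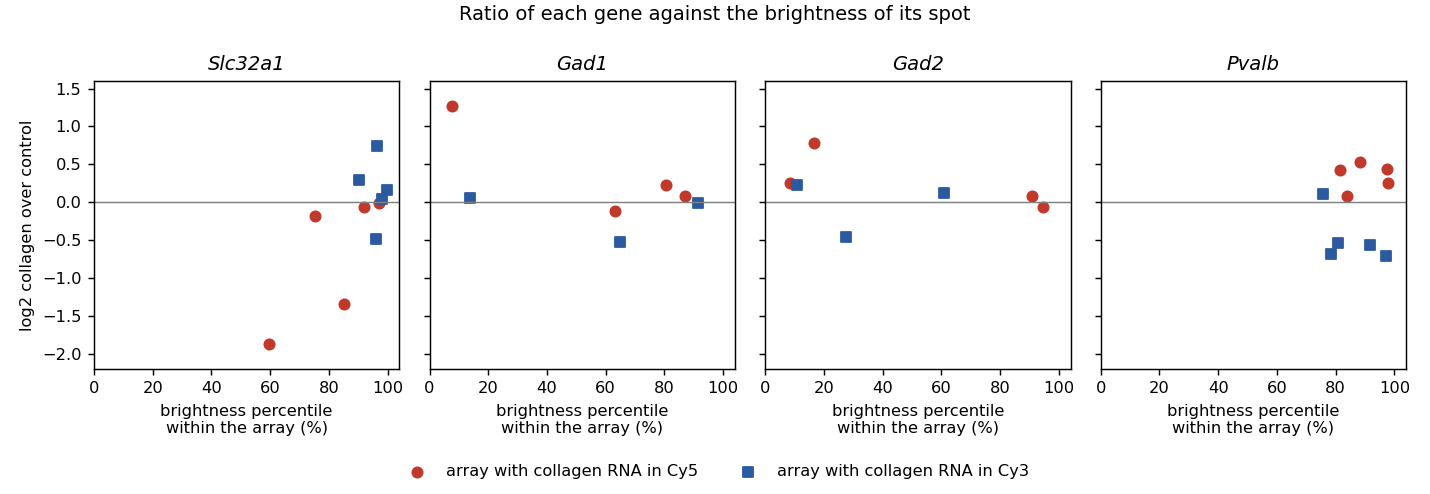
Log2 ratio of collagen over control (vertical axis) against the brightness of the gene's spot as a percentile of all measured spots of the same array (horizontal axis), 1 point for each array with a value. Circles are arrays with collagen RNA in Cy5 and squares those with it in Cy3. The Slc32a1 ratios of -1.87 and -1.35 lie at the 59.6th and 85.1st percentile, and 1 of the Gad1 and 3 of the Gad2 spots with a ratio above 0.2 lie below the 20th.

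Gad2, the decarboxylase held mainly at nerve terminals, was higher in the collagen RNA in all 3 replicates. Its values were 0.02 in replicate 1, 0.15 in replicate 2 and 0.16 in replicate 3. The mean was 0.11 ± 0.08 (SD, n = 3), with a 95% interval of -0.08 to 0.30, and it did not pass the test (limma adjusted p = 0.827). Of all probes, 8.92% were higher in the 3 replicates. Neither first pair of replicates 1 and 2 gave a value, so each replicate of Gad2 rests on 1 pair.

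The arrays behind the Gad2 means lay furthest apart in replicate 3. In the second pair of replicate 1 the ratio was -0.07 with collagen RNA in Cy5 and 0.12 with it in Cy3, and in that of replicate 2 it was 0.08 and 0.22. In replicate 3 it was 0.78 with collagen RNA in Cy5 and -0.47 with it in Cy3, so the 0.16 of that replicate is the middle of opposite values. Both Gad2 spots of replicate 3 were dim, at the 16.8th and 27.6th percentile of their arrays. On the Cy3 array of replicate 3 the repeat scans of Gad2 ran from -0.98 to 0.40. The Gad2 spot behind the 0.22 of replicate 2 was dimmer by rank, at the 10.8th percentile, and its repeat scans ran from -0.47 to 0.66. Signal over background there was 0.69 for collagen and 0.22 for control. With the first scan of each array alone, the mean of Gad2 was -0.09, and with the second scan alone it was 0.29.

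Gad1, the decarboxylase that makes most of the brain's basal GABA, differed in sign between the replicates. It stood at 0.11 in replicate 1, 0.07 in replicate 2 and -0.33 in replicate 3. The mean was -0.05 ± 0.24 (SD, n = 3), with a 95% interval of -0.32 to 0.22 (limma adjusted p = 0.933). Replicate 3 alone gave the mean its sign: without it the mean was 0.09. In that replicate both arrays were below 0, at -0.12 with collagen RNA in Cy5 and -0.53 with it in Cy3. In the second pair of replicate 1, Gad1 stood at 0.23 with collagen RNA in Cy5 and -0.01 with it in Cy3, and in that of replicate 2 at 0.08 and 0.06. The 0.06 was the mean of 2 usable scans of 3, at -0.21 and 0.33, from a spot at the 13.8th percentile of its array. Its signal over background was 0.58 for collagen and 0.30 for control.

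For Gad1 and Gad2 the first pairs of replicates 1 and 2 gave almost no paired signal. Gad1 had a usable spot on 1 of those 4 arrays, the Cy5 array of replicate 1, where 1 of 3 scans gave a ratio of 1.27 at the 7.66th percentile of brightness. Gad2 had one on the same array, with 0.26 from 1 scan at the 8.46th percentile. Neither value entered a mean, because the other array of the pair had none. On the first pair of replicate 2, Gad1 had signal on the Cy5 array in 0 of 2 scans for collagen and in 2 of 2 for control. On the Cy3 array it was in 2 of 3 for collagen and in 0 of 3 for control. On that pair the Gad1 signal thus lay in channel A on both arrays. Gad2 had signal there in 2 of 2 scans for control and 0 of 2 for collagen on the Cy5 array. On the Cy3 array it had signal in 0 of 3 scans for either RNA. The cause was not tested. Over all 29 scans, Gad1 gave a ratio in 18 and Gad2 in 19, against 29 each for Slc32a1 and Pvalb.

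Pvalb had closer pairs than Slc32a1, the other member with 5 pairs, and a split by dye. Its replicates stood at -0.07, -0.15 and 0.09, with a mean of -0.04 ± 0.12 (SD, n = 3) and a 95% interval of -0.25 to 0.17 (limma adjusted p = 0.921). Its pairs stood at -0.12 and -0.02 in replicate 1, -0.23 and -0.06 in replicate 2, and 0.09 in replicate 3. The SD over the 5 pairs was 0.12, so the treatment ratio of Pvalb lay within the spread of its own pairs.

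On single arrays Pvalb was above 0 on all 5 arrays with collagen RNA in Cy5, between 0.08 and 0.53 with a median of 0.42. With collagen RNA in Cy3 it lay between -0.71 and 0.10, with a median of -0.57 and 4 of 5 arrays below 0. Channel B was the brighter one on 9 of 10 arrays. The dye effect of Pvalb was 0.56 in replicate 1, 0.48 in replicate 2 and -0.01 in replicate 3, a mean of 0.34 ± 0.31 (limma adjusted p = 0.254, unadjusted p = 0.0445). Of all probes, 18.9% had an unadjusted p under 0.05 for the dye effect. In a fit on the 10 arrays with a dye term and no replicate block, the Pvalb dye effect was 0.41 and passed (adjusted p = 0.0135). That fit took arrays of the same replicate as independent. It called far more probes for the dye effect than the 55 of the test on replicate values, so passing it was not particular to Pvalb. If the channel letters followed the RNA instead of the dye, this 0.34 would be the ratio of collagen over control.

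The dye effects of the other members did not pass. That of Gad1 was 0.11 ± 0.10 (limma adjusted p = 0.543) and that of Gad2 0.15 ± 0.41 (adjusted p = 0.639). Gad2 stood at -0.09, -0.07 and 0.62 for channel B over A in replicates 1, 2 and 3, so replicate 3 led its mean. Gad1 was brighter in channel B in all 3 replicates, as were 25.8% of all probes.

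The members were also set against each other within replicates. Slc32a1 minus Gad2 was -0.32, -0.41 and -0.40 in replicates 1, 2 and 3, a mean of -0.38 ± 0.05 (SD, n = 3). In replicates 1 and 2, Slc32a1 and Pvalb are means of both pairs, while Gad1 and Gad2 rest on the second pair alone. In those second pairs Slc32a1 stood at 0.05 in both replicates, against 0.02 and 0.15 for Gad2. On shared pairs, Slc32a1 minus Gad2 thus had both signs. Slc32a1 minus Pvalb was -0.23 ± 0.11, below 0 in the 3 replicates, while Slc32a1 minus Gad1 was -0.22 ± 0.26 and changed sign in replicate 3. Gad2 minus Pvalb was 0.15 ± 0.13, above 0 in the 3 replicates. Exact two-sided sign-flip tests over 3 replicates cannot give a p below 0.25. Slc32a1 minus Gad2, Slc32a1 minus Pvalb and Gad2 minus Pvalb each had an exact p = 0.25, adjusted to 0.5 over the 6 differences. As values, Slc32a1 was negative and Gad2 positive in the 3 replicates and Gad1 was of mixed sign, while the interval of Gad1 held the mean of Slc32a1.

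Over the 5 pairs, the named genes with ratios most like those of Slc32a1 were Tox4, Mlf2 and Atp13a2, each with Pearson r = 0.99. For Atp13a2 the pairs stood at -0.65 and 0.01 in replicate 1, -0.56 and 0.05 in replicate 2, and -0.15 in replicate 3, so its first pairs were also far below its second pairs. With only 5 points, 53 of 1686 named probes had r over 0.9 with Slc32a1. The genes most like Pvalb were E2f6, Apoo and Ids, each with r = 0.99, and 62 probes had r over 0.9. These are descriptions over pairs of which some share a replicate, with no test. Gad1 and Gad2 lacked 2 of the 5 pairs and were not compared in this way.

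The rest of inhibitory transmission was measured in part. Of 82 further genes listed for GABA and glycine signalling, 38 had a probe and 20 had a value in all 3 replicates. None of these 20 passed (limma, 0 of 20 also at an unadjusted p under 0.05), with a smallest adjusted p of 0.827. Of the 20, 17 were lower and 3 higher in the collagen RNA, with a median of -0.05, against -0.025 and 59.2% lower over all tested probes. In all 3 replicates 7 were lower and 1 was higher, where 20.8% and 8.92% of all probes were. The leaning to lower values turned under 2 of 30 alternatives, but under the dye labels used here both hold the dye effect, not the treatment ratio. In these, 6 of 20 were lower with channel A read as control on every array, and 6 of 17 with the authors' value table turned. With median centring, 12 of 20 were lower, a share near the 59.2% of all probes in the reported fit. The share of all probes under median centring is not given here. Filters and priors among the 30 leave the mean of a gene as it is, so they could not turn its sign.

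Among genes of GABA uptake, breakdown and precursor supply, Slc38a3, a glutamine transporter of astrocytes, stood at -0.18 ± 0.15 (SD, n = 3) and was lower in the 3 replicates. Slc38a1, a glutamine transporter of neurons, stood at -0.02 ± 0.16. The glutamate transporter gene Slc1a3 stood at -0.0017 ± 0.10. The transaminase gene Abat, whose product breaks GABA down, had no replicate value, and the transporter gene Slc6a12 had 1.

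All 4 measured subunits of the GABA-A receptor, the chloride channel that GABA opens, were slightly lower. Gabra4 stood at -0.08 ± 0.11 and was lower in each replicate. Gabrb1 stood at -0.07 ± 0.20, Gabrb2 at -0.06 ± 0.14 and Gabrg3 at -0.05 ± 0.08, each with both signs among its replicates. Of 12 subunit genes with a probe, the other 8 lacked a value in at least 1 replicate. Of the genes listed for the GABA-B receptor, the auxiliary subunit gene Kctd16 was the only one with a probe, and it had a value in 1 replicate.

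Of genes for receptor trafficking, Gabarapl1 stood at -0.10 ± 0.06 and Gabarapl2 at -0.08 ± 0.06, both lower in the 3 replicates. They belong to the family of the GABA-A receptor-associated protein, which also acts in autophagy. Gabarap itself stood at -0.03 ± 0.08, and Dbi, the precursor of a peptide that binds the benzodiazepine site, at 0.0046 ± 0.16. For glycine, Glrb, the beta subunit of the glycine receptor, had the highest mean of the 24 genes, 0.18 ± 0.23, with 0.43, 0.13 and -0.03 in replicates 1, 2 and 3. The glycine transporter gene Slc6a9 stood at -0.02 ± 0.06.

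Of markers of GABA neuron classes, Calb1, the calbindin gene, stood at -0.14 ± 0.18 and Sst, the somatostatin gene, at -0.12 ± 0.13. Both were lower in the 3 replicates, Calb1 with -0.34 in replicate 2 and -0.0052 and -0.06 in replicates 1 and 3. Calb2, the calretinin gene, stood at -0.10 ± 0.19. Gata3, a transcription factor gene of midbrain GABA and serotonin neurons, stood at -0.04 ± 0.03, lower in each replicate. Dlx1, a homeobox gene of forebrain GABA neurons, stood at 0.12 ± 0.10 and was the one further gene higher in all 3 replicates. The nociceptin precursor gene Pnoc and the potassium channel gene Kcnc1 stood at -0.01 each.

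**Figure D3:**
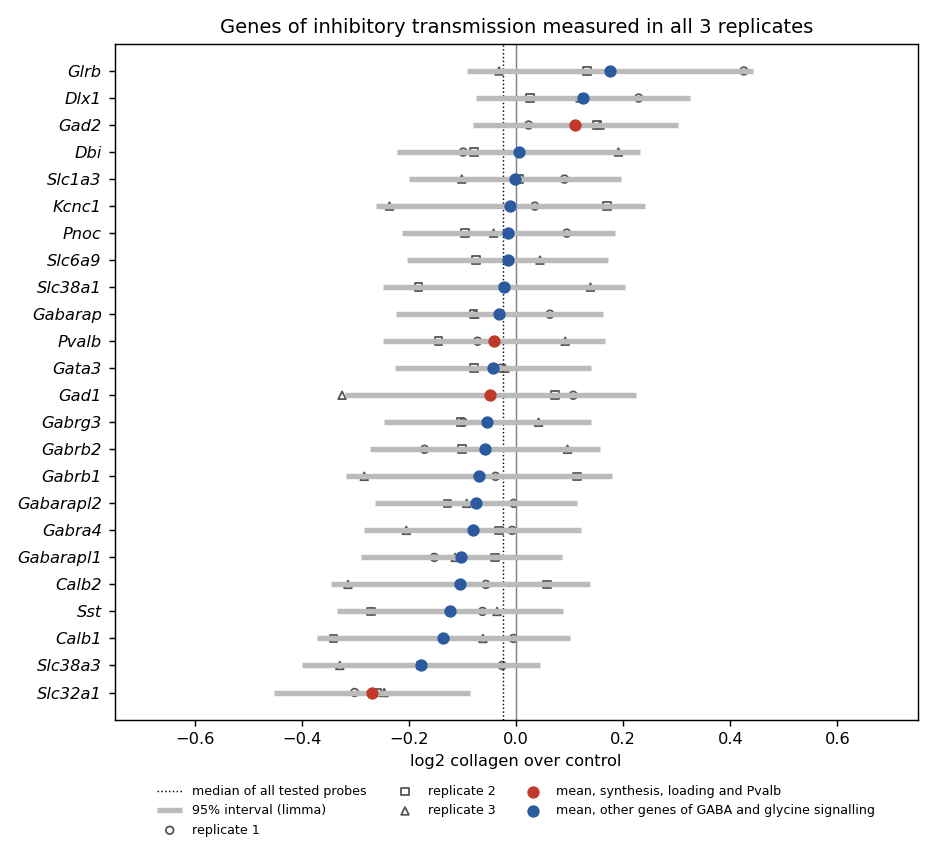
Log2 ratio of collagen over control (horizontal axis) of the 24 genes of inhibitory transmission measured in all 3 replicates. Filled points are means (red for Slc32a1, Gad1, Gad2 and Pvalb, blue for the others), open symbols are replicates, grey bars are limma's 95% intervals and the dotted line is the median of all tested probes. Slc32a1 has the lowest mean and the one interval, -0.45 to -0.09, that does not reach 0.

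None of the markers of other cells passed the test. Of 6 measured genes of neurons in general, 4 were lower, with a median of -0.06 and the synapsin gene Syn1 at -0.29 ± 0.27. All 5 measured cerebellar genes had a mean below 0, with a median of -0.15, where 59.2% of all probes did. The transcription factor genes Zic4, at -0.40 ± 0.13, and Neurod1, at -0.38 ± 0.26, were lower in the 3 replicates. Zic1 at -0.15 ± 0.24, Pcp4 at -0.04 ± 0.13 and Cbln1 at -0.03 ± 0.14 had both signs among theirs. Pvalb and Calb1 are strongly expressed in the cerebellum too, and the Purkinje cell gene Pcp2 was not measured in all replicates. Of 5 dopamine genes, 3 were higher, where 1688 of all 4139 probes were. The median of these 5 genes was 0.18, and by replicate it was 0.01, 0.03 and 0.26 in replicates 1, 2 and 3. Microglia genes were lower in 3 of 4, with a median of -0.09, and oligodendrocyte genes in 2 of 3, with -0.04. No marker of glutamate neurons or red cells from the list had a probe. The part of these values in the ratios of Slc32a1, Gad1, Gad2 and Pvalb was not tested.

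**Figure D4:**
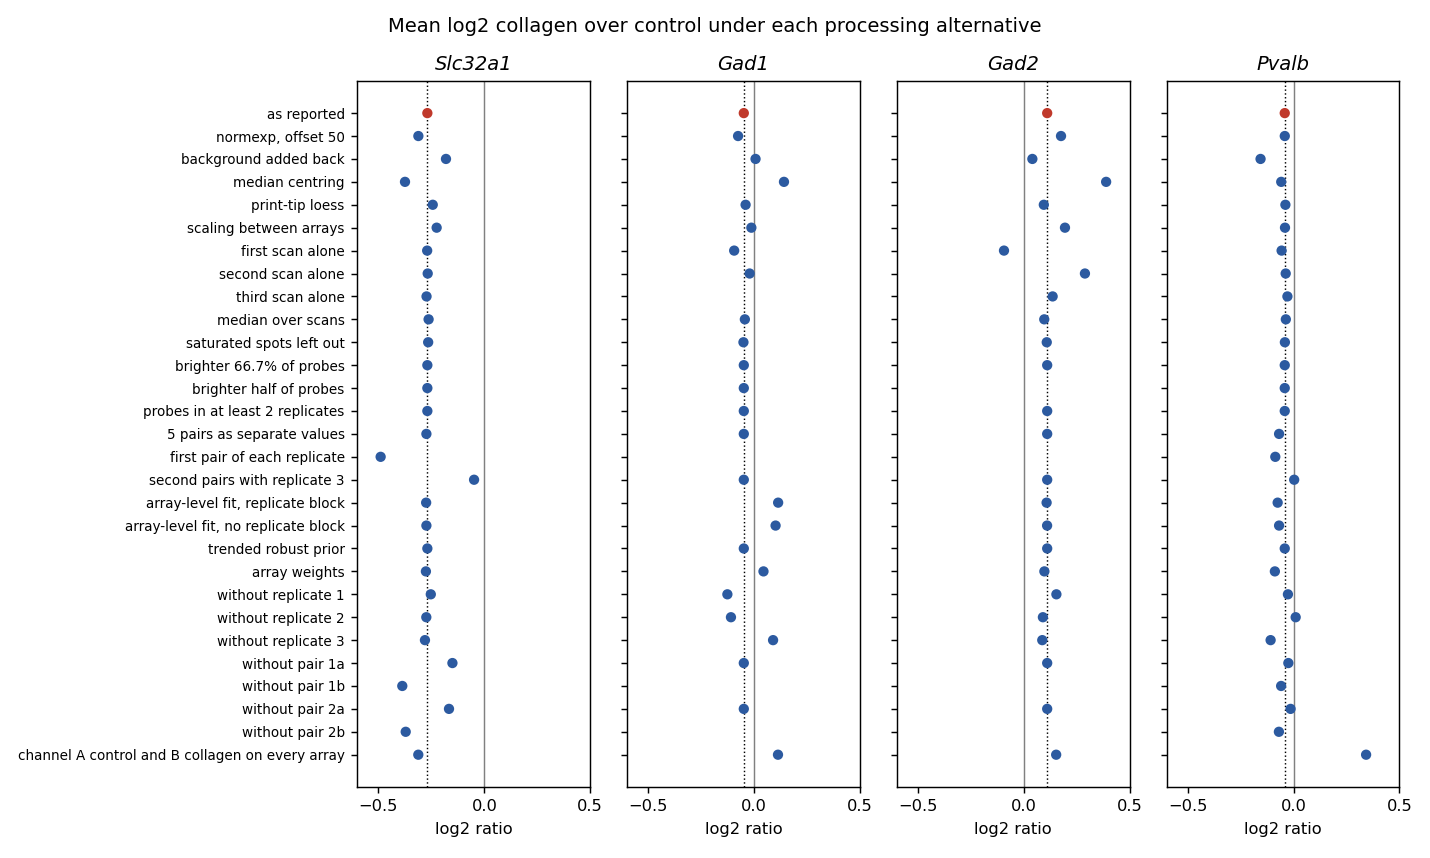
Mean log2 ratio of collagen over control (horizontal axis) of each gene as reported (red) and under the processing alternatives with a value (blue), one row per alternative. Alternatives based on the authors' value table are not drawn. The row with channel A as control on every array holds the dye effect. The dotted line is the reported mean. Slc32a1 stays below 0 and runs from -0.49 with the first pair of each replicate to -0.05 with the second pairs and replicate 3. Gad1 lies on both sides of 0.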

How the data were processed

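The members, gene lists and tests were chosen with earlier results of these data known. Per the file headers, the scanner files hold spot intensity in channels A and B, already corrected for background, the spot background and a saturation factor, a fraction from 0 to 1, with no normalisation between channels. The quantification software was not given in the sources used here, and 10 arrays have 29 repeat scans. The value table deposited by the authors holds a score per probe and array, of unstated log base and scaling, with medians of -0.00862 to 0.00332. It served only as an alternative.

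Spots were matched to probes by printing block, and the value table then correlated with the scanner ratios of channel B over A at 0.672 to 0.835 on the arrays with collagen RNA in Cy5 and at -0.786 to -0.67 on those with it in Cy3. A spot was used where both channels were over 0 with no X, Y or Z flag. Ratios were normalised per scan by loess on brightness (span 0.3, 4 iterations), averaged over scans, turned by the dye labels, and averaged over both arrays of a pair and over the pairs of a replicate. Replicate values were tested with limma 3.58.1 in R 4.3.3 (lmFit, eBayes). The fit was tested on simulated data. The small number of arrays limits the precision. Arrays of one replicate number were taken as the same RNAs. The labels do not say that replicates came from separate animals, so p-values measure the spread between these replicates.

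Named genes are the members. Also named are listed pathway genes with 1 sign in all 3 replicates or the highest or lowest mean of their list, and the 3 genes most correlated with a member over the 5 pairs. Other listed genes were named after their values were seen.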

Additional observations from a re-analysis of the deposited data

Results flagged for a closer look

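Of 14 sets of member values over the arrays of one dye orientation or over the pairs, 1 held a value far from the rest, and about 1 in 20 would be so marked by chance. Pvalb stood at 0.10 on the Cy3 collagen array of replicate 3, while the nearest of the other 4 arrays of that orientation stood at -0.54. The Pvalb spot on that array was brighter than 75.7% of those measured on it.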

How the results depend on the processing

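No probe was called in 28 of 30 alternatives. The exceptions were the authors' value table turned by the dyes, with 59, and channel A read as control on every array, with 55. Under the dye labels used here, both hold channel B over A, the dye effect, and not the treatment ratio. The authors' table already changed sign with the dye labels before it was turned. The reported fit of the dye effect also called 55. Slc32a1 stayed negative in 30 of 30, at adjusted p of 0.412 to 0.958, although filters and priors leave its mean as it is. Those 30 include both alternatives that hold the dye effect, and the 0.412 is that of fixed channel letters. Gad1 became 0.0069 with background added back, 0.14 with median centring, 0.044 with array weights, 0.11 with fixed channel letters, and 0.0014 and 0.033 with the authors' table as it stands and turned, with -0.13 to 0.090 (without replicate 3) on leaving out a replicate or pair. Gad2 became -0.094 with the first scan and -0.10 with the authors' table turned, and stood at 0.39 with median centring and 0.040 with background added back. Pvalb stood at -0.16 with background added back (unadjusted p = 0.0366, limma adjusted p = 0.786). It became 0.0028 with the second pairs and replicate 3, 0.18 with the authors' table turned and 0.34 with fixed channel letters, and ranged from -0.11 to 0.0098 (without replicate 2) on leaving out a replicate or pair. The first pairs alone gave no value for Gad1 or Gad2. The array-level fit with the replicate block gave Slc32a1 -0.27 and Gad1 0.11, and the fit without it gave Gad1 0.10. The block changed no call of a member's treatment ratio (consensus correlation -0.092). Repeat pairs of replicates 1 and 2 correlated at 0.0391 and 0.14 over 1830 probes, and pairs of different replicates at -0.0153 to 0.124.

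The dye effect of Slc32a1 became 0.048 with median centring and passed at -0.55 with array weights. That of Gad2 became -0.23 with median centring, -0.11 with the second scan and -0.022 with array weights, and ranged from -0.082 (without replicate 3) to 0.28. That of Pvalb passed at 0.47 with background added back, 0.41 with the replicate block and 0.41 without it, and 0.47 with array weights. The array-level fits with and without the block each called far more probes for the dye effect than the 55 of the reported fit. The count of lower genes among the other pathway genes was 10 with the first pair of each replicate (of 13 measured). On leaving out a replicate or pair it was 9 (of 13 measured, without the second pair of replicate 2) to 17. It was 6 with the authors' table turned and 6 with fixed channel letters (A as control throughout), both of which hold the dye effect. With fixed channel letters 2 were called, Glrb and Gabrb2. Except for the numbers of pairs and genes, the cause was not tested. Dim spots of Gad1 and Gad2 limit what their ratios can show.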

Other observations

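Of the 24 measured genes of inhibitory transmission, 2 passed the test of the dye effect, both brighter in channel A, where 1.33% of all probes passed. Glrb stood at -1.13 ± 0.26 (limma adjusted p = 0.0251) and Gabrb2 at -0.93 ± 0.29 (adjusted p = 0.0399) for channel B over A (SD, n = 3), while their treatment ratios were 0.18 and -0.06. Gabrg3 stood at -0.48 ± 0.40 for the dye effect (adjusted p = 0.214).

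The authors' deposited table gave Slc32a1 its lowest value, -1.12, on the Cy5 array of the first pair of replicate 2 and its highest, 0.31, on the Cy3 array of that pair, the same arrays as in the scanner ratios. The scale and direction of that table are not stated. For Gad1 and Gad2 the authors' deposited table held no value on the 4 arrays of the first pairs of replicates 1 and 2.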
